A study of Mus musculus with 6 samples.

Results

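A set of 10 genes of NF-κB signalling and proinflammatory cytokine action was followed in the hippocampus of methamphetamine (MA)-treated and control mice: *Il1b*, *Tnf*, *Il6*, *Il18*, *Il1r1*, *Tnfrsf1a*, *Nfkb1*, *Rela*, *Nfkbia* and *Tnfaip3*. They were chosen by name, with earlier results of these data known. Of the 10, 9 have a row among the 16060 rows of the deposited table, whereas *Tnf* is not analysed here. The tissue was the hippocampus of adult male C57BL/6 mice, with no transgene or mutant allele named for either group. The Control group (3 mice) received saline by injection, and the MA group (3 mice) received MA at doses that were raised from week to week, after which anxiety-like behavior was tested and the mice were killed. Each library was made from 1 hippocampal RNA sample, so the values are an average over neurons, astrocytes, microglia and vessel cells, and fewer cells of a type cannot be told apart from less RNA per cell. All values are on a log scale, read as log2(RPKM + 1), where RPKM is the read density per kilobase of gene scaled to library size. Fold changes are given on this log2 scale as the mean of the MA group minus that of the Control group, and SE is the standard error. Which libraries are MA rests on the sample labels and column names alone. The direction that the study's text gives for immediate early genes and *Gadd45b* runs against these labels, so "MA group" means the libraries labelled MA throughout, and every sign would turn if the labels were exchanged. The comparison asks whether these genes differ at the RNA level between the groups. The study attributes cytokine release to drug exposure, and by qPCR of the hippocampus it reported higher *Il1b*, *Tnf* and *Il6* RNA in MA-treated mice.

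NF-κB is a family of transcription factor dimers that is held in the cytoplasm by IκB proteins. Ligands such as IL-1β and TNFα bind their receptors, adaptor proteins activate the IκB kinase (IKK) complex, IκB is phosphorylated and degraded, and the freed dimers enter the nucleus and switch on cytokine, chemokine and survival genes. IκBα (*Nfkbia*) and A20 (*Tnfaip3*) are themselves induced and close the loop. In the brain, microglia are the main source of IL-1β and TNFα, and astrocytes and endothelial cells respond to them.

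Markers of hippocampal neurons were present in all 6 libraries, with *Neurod6* between 5.74 and 6.49 and *Prox1* between 3.26 and 3.67. The library labelled MA replicate 3 stood apart, with a mean Pearson correlation across tested genes of 0.978 with its group, against 0.984 to 0.993 for the other libraries. Sums of back-transformed marker levels differed between the groups for some tissues. The 6 choroid plexus markers summed to between 65.5 and 420 in the Control group and between 1774 and 5075 in the MA group. The 5 blood markers, mainly globins, gave 1599 to 2024 and 3319 to 4378, the 4 endothelial markers 53.2 to 58.2 and 62.5 to 88.3, and the 4 meningeal markers 11.2 to 14.3 and 17.8 to 30.8. The 8 immediate early genes, which report neuronal activity, gave 250 to 350 in the libraries labelled Control and 87.6 to 102 in those labelled MA, and it is this direction that puts the labels in doubt. By contrast, the groups overlapped for the 8 microglial markers (179 to 189 and 181 to 190), the 5 astrocyte markers (315 to 331 and 270 to 350) and the 5 leukocyte markers found of 6 (2.83 to 4.09 and 2.18 to 10.4). The sums of the other lists also overlapped. All 5 hippocampal neuron markers nevertheless had lower means in the MA group (median log2 fold change -0.15). Of these, 2 (40%) had an unadjusted p under 0.05 (limma), against 10.4% of all tested genes. All 4 thalamic markers had higher means (median 0.39), and 0 had an unadjusted p under 0.05 (limma). The part of tissue content in the gene values was not tested. None of the markers named here was at 0 in any library, except a duplicate row of the microglial gene *Itgam*.

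In the Control libraries the 9 genes fell into 5 steps of level. *Nfkbia* and *Il18* were the highest, at 4.31 ± 0.22 and 4.21 ± 0.09 (SD, n = 3 each), above 75.2% and 73.8% of all rows in the table. The NF-κB subunits *Nfkb1* and *Rela* lay near the middle of the table, at 2.83 ± 0.05 and 2.76 ± 0.09, above 51.1% and 49.9% of rows. The receptors *Tnfrsf1a* and *Il1r1* followed at 2.25 ± 0.12 and 2.03 ± 0.20, and *Tnfaip3* was at 0.99 ± 0.07. *Il6* and *Il1b* lay near the bottom, at 0.085 ± 0.080 and 0.057 ± 0.005, above only 5.37% and 3.96% of rows. Within each of the pairs *Nfkbia* and *Il18*, *Nfkb1* and *Rela*, *Tnfrsf1a* and *Il1r1*, and *Il6* and *Il1b*, the Control libraries overlapped. Between neighbouring steps they did not, and the steps were also separate when all 6 libraries were pooled.

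**Figure D1:**
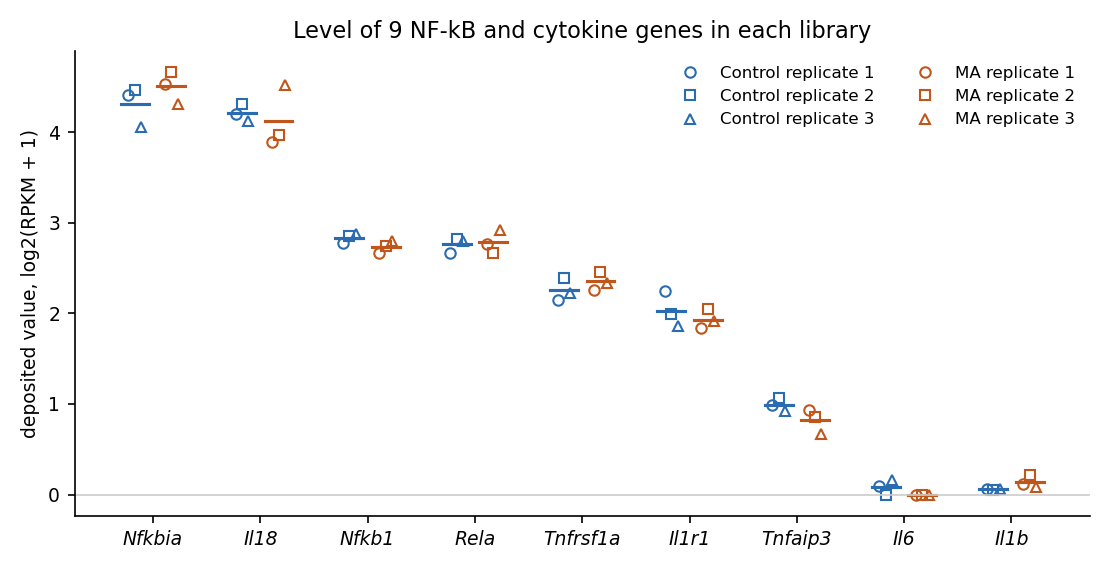
Deposited value of each gene, log2(RPKM + 1), in the 3 Control libraries (blue) and the 3 MA libraries (orange), ordered by the Control mean. Symbols mark the replicate and horizontal lines the group means. *Il6* and *Il1b* lie below 0.25 in every library, and for the 7 genes above them the groups overlap.

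Among the cytokines, *Il1b* encodes IL-1β, a leading inflammatory signal that is made as a precursor and cut by caspase-1. *Il1b* (ENSMUSG00000027398) lies on the minus strand of chromosome 2, from 129364570 to 129371139 of GRCm38. Its values were 0.063, 0.052 and 0.057 in Control replicates 1, 2 and 3 and 0.115, 0.214 and 0.082 in MA replicates 1, 2 and 3. Every MA library was thus above every Control library, with MA replicate 2 the highest. Back-transformed, the group means were 0.040 and 0.10 RPKM, so both groups were close to the lowest value the table holds. It did not pass the filter on low values (at least 0.5 RPKM in at least 3 libraries) and was not part of the main test. The exact two-sided permutation test gave p = 0.1, the smallest p that 3 against 3 libraries allow, and such a separation of the groups was found in 16.7% of all rows. When all rows were tested without the filter, the limma adjusted p of *Il1b* was 0.660. The difference was 0.080 on the deposited scale and 0.48 with an offset of 0.1 in place of 1, and 0.042 without MA replicate 2. An antisense transcript, *Il1bos*, shares 25 exonic bases with the gene, and the methods do not say whether counting used strand. The levels of microglial and leukocyte markers, which overlapped between the groups, are given above, and their part in the *Il1b* values was not tested.

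*Il6* (ENSMUSG00000025746; chromosome 5, 30013114 to 30019981, plus strand) encodes a cytokine that is strongly induced by NF-κB and signals through gp130. The gene was listed at 0 in Control replicate 2 and in MA replicates 1 and 2, and at 0.000206, the lowest value of that library, in MA replicate 3. In Control replicates 1 and 3 it was 0.099 and 0.157. No MA library thus held *Il6* above its own lowest value. The groups overlapped through Control replicate 2 (exact permutation test, two-sided, p = 0.4), and the limma adjusted p without the filter was 0.648. No fold change is given for a gene listed at 0.

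**Figure D2:**
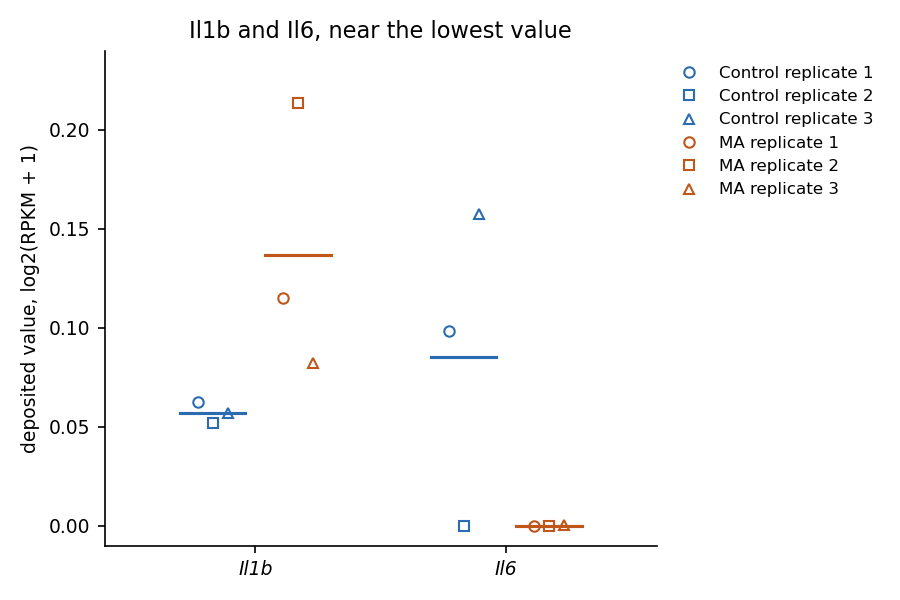
Deposited values of *Il1b* and *Il6*, log2(RPKM + 1), on an axis that ends just above 0.2, in the 3 Control libraries (blue) and the 3 MA libraries (orange). Lines are group means. *Il1b* is higher in all 3 MA libraries, and *Il6* lies at the lowest value of all 3 MA libraries and of Control replicate 2.

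*Il18* (ENSMUSG00000039217; chromosome 9, 50554827 to 50581840, plus strand) encodes a relative of IL-1β that is also released by caspase-1. It was the only one of the 3 measured cytokines well above the filter. Its values were 4.20, 4.31 and 4.12 in the Control group and 3.90, 3.97 and 4.52 in MA replicates 1, 2 and 3. MA replicates 1 and 2 were below all Control libraries and MA replicate 3 was above all of them. The spread within the MA group (SD 0.34) was therefore larger than the difference between the group means, a log2 fold change of -0.083 (SE 0.17, adjusted p = 0.912 by limma). Without MA replicate 3 the log2 fold change was -0.28, with an unadjusted p of 0.0137 and an adjusted p of 0.123 from limma, and without MA replicate 1 it turned to 0.033. MA replicate 3 was also the library with the highest choroid plexus (5075), leukocyte (10.4) and oligodendrocyte (2600) sums. It had the lowest neuron (1155) and astrocyte (270) sums. The part of these cells in the *Il18* value was not tested.

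The receptors belong to different families that converge on IKK. *Il1r1* (ENSMUSG00000026072; chromosome 1, 40225080 to 40317257, plus strand) encodes the signalling receptor of IL-1. It was 2.24, 1.99 and 1.86 in the Control group and 1.83, 2.05 and 1.91 in the MA group. The groups overlapped, with Control replicate 1 the highest and MA replicate 1 the lowest, and the log2 fold change was -0.10 (SE 0.13, adjusted p = 0.850 by limma). It became 0.0062 without Control replicate 1. *Tnfrsf1a* (ENSMUSG00000030341; chromosome 6, 125349362 to 125362484, plus strand) encodes TNFR1, the widely expressed receptor of TNFα. Its values of 2.15, 2.39 and 2.22 in the Control group and 2.26, 2.46 and 2.33 in the MA group overlapped as well. The log2 fold change was 0.10 (SE 0.11, adjusted p = 0.821 by limma), and it lay between 0.044 (without MA replicate 2) and 0.17 (without Control replicate 2) when 1 library was left out.

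*Nfkb1* and *Rela* encode p50 (from the precursor p105) and p65, the subunits of the most common NF-κB dimer. *Nfkb1* (ENSMUSG00000028163; chromosome 3, 135584655 to 135691547, minus strand) was 2.78, 2.85 and 2.87 in the Control group and 2.67, 2.74 and 2.79 in the MA group. Only MA replicate 3 lay above the lowest Control library. The log2 fold change was -0.10 (SE 0.09, adjusted p = 0.759 by limma), with p = 0.2 in the exact two-sided permutation test. *Rela* (ENSMUSG00000024927; chromosome 19, 5637483 to 5648130, plus strand) was 2.66, 2.83 and 2.80 in the Control group and 2.76, 2.67 and 2.92 in the MA group. Its log2 fold change of 0.020 (SE 0.11, adjusted p = 0.968 by limma) was the smallest in size of the 7 tested genes, and it was -0.048 without MA replicate 3 and -0.031 without Control replicate 1. In all 6 libraries both subunits lay between 2.66 and 2.92.

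The remaining family members, *Nfkb2*, *Relb* and *Rel*, encode p100/p52, RelB and c-Rel. *Relb* was at 2.17 in the Control group and 2.13 in the MA group (means of 3), and *Nfkb2* at 0.70 and 0.67. Their log2 fold changes were -0.045 and -0.026, which did not pass the threshold (adjusted p = 0.937 and 0.960 by limma). *Nfkb2* shares exonic bases with *Psd* and an RNA on the other strand and is uncertain. *Rel*, which is best known from lymphoid cells, was between 0.457 and 0.609 in the Control group and between 0.243 and 0.481 in the MA group, and was under the filter. Of the 5 family members, *Nfkb1* and *Rela* were thus the highest in this tissue in both groups.

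The inhibitors *Nfkbia* and *Tnfaip3* act at different points: IκBα binds the dimers, and A20 edits ubiquitin chains on the receptor complexes upstream of IKK. Both genes, like *Il6*, are classical NF-κB targets. The bases just before the RefSeq start sites (GRCm38.p6) of these genes are therefore shown, to place matches to the κB consensus sequence. The κB consensus (10 bases, with degenerate positions) was searched on both strands of each promoter, from 250 bases before the start to 50 after it. Capitals mark each match in the 140 bases upstream of the start, written 5′ to 3′ on the strand of the gene.
*Il6*, chr5:30012974-30013113, plus strand: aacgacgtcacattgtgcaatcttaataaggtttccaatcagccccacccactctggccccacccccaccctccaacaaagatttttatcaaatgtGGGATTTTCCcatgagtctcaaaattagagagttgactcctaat
*Nfkbia*, chr12:55492648-55492787, minus strand: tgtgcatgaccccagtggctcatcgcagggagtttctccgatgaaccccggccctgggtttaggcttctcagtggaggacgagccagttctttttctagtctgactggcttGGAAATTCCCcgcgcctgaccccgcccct
*Tnfaip3*, chr10:19015411-19015550, minus strand: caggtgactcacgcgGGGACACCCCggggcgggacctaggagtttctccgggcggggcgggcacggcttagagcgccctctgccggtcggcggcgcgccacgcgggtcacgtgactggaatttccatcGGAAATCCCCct
The match of *Il6* begins 44 bases upstream of the start and that of *Nfkbia* 29 bases upstream. *Tnfaip3* has a match beginning 125 bases upstream of this RefSeq start, which reads as the consensus on both strands, and another beginning 12 bases upstream. Its other RefSeq start has none. GENCODE places the 5′ end of *Tnfaip3* further upstream, at 19015657, so the window printed for it lies inside the gene as GENCODE draws it. Of the 9 genes found in the promoter table, *Tnf* included, 4 had a match in at least 1 promoter (the fourth was *Il1r1*, at 1 of its 2 starts, beginning 232 bases upstream), and *Il1b*, *Il18*, *Rela*, *Tnf* and *Tnfrsf1a* had none in this window. A match was found in 8.46% of all 32851 promoters of this length, and 9.55% of genes had at least 1. These matches describe the sequence only and do not show binding in these samples.

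*Nfkbia* (ENSMUSG00000021025; chromosome 12, 55489410 to 55492647, minus strand) was 4.41, 4.47 and 4.06 in the Control group and 4.54, 4.67 and 4.31 in the MA group. MA replicates 1 and 2 were above all Control libraries, whereas MA replicate 3 was below Control replicates 1 and 2. The log2 fold change of 0.19 was the largest increase among the 7 tested genes, but it was smaller than the SD of the Control group (0.22) and was not significant (SE 0.14, adjusted p = 0.694 by limma). It was 0.068 without Control replicate 3 and 0.11 without MA replicate 2. *Tnfaip3* (ENSMUSG00000019850; chromosome 10, 19000910 to 19015657, minus strand) was 0.99, 1.06 and 0.92 in the Control group and 0.93, 0.86 and 0.67 in the MA group. MA replicate 3 was the lowest, and MA replicate 1 lay above Control replicate 3. With a log2 fold change of -0.17 (SE 0.12), it had the smallest p of the 7 genes, which did not pass the threshold (limma unadjusted p = 0.183, adjusted p = 0.676). Without MA replicate 3 its log2 fold change was -0.095. The means of these inhibitors, both known targets of the pathway, thus differed in opposite directions, and neither passed the test.

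Over the 7 tested genes, 0 passed an adjusted p under 0.05 and 0 an unadjusted p under 0.05 (limma, 13321 genes tested), while 0.263% and 10.4% of all tested genes did (4.99% higher and 5.46% lower at the unadjusted threshold). None had groups without overlap, which 17.5% of all tested genes had (7.32% with the MA group higher and 10.2% with it lower). The median log2 fold change was -0.083 (3 means higher and 4 lower), and that of all tested genes was -0.010. The 95% intervals of the log2 fold change were -0.48 to 0.31 for *Il18*, -0.41 to 0.21 for *Il1r1*, -0.16 to 0.36 for *Tnfrsf1a*, -0.31 to 0.11 for *Nfkb1*, -0.23 to 0.27 for *Rela*, -0.14 to 0.52 for *Nfkbia* and -0.44 to 0.10 for *Tnfaip3*. On this scale all 7 intervals lay between a ratio of 0.719 (*Il18*) and one of 1.44 (*Nfkbia*), which are the bounds that 3 libraries a group allow for these genes. For low genes such as *Tnfaip3* the scale understates a change: with an offset of 0.1 its log2 fold change was -0.34.

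**Figure D3:**
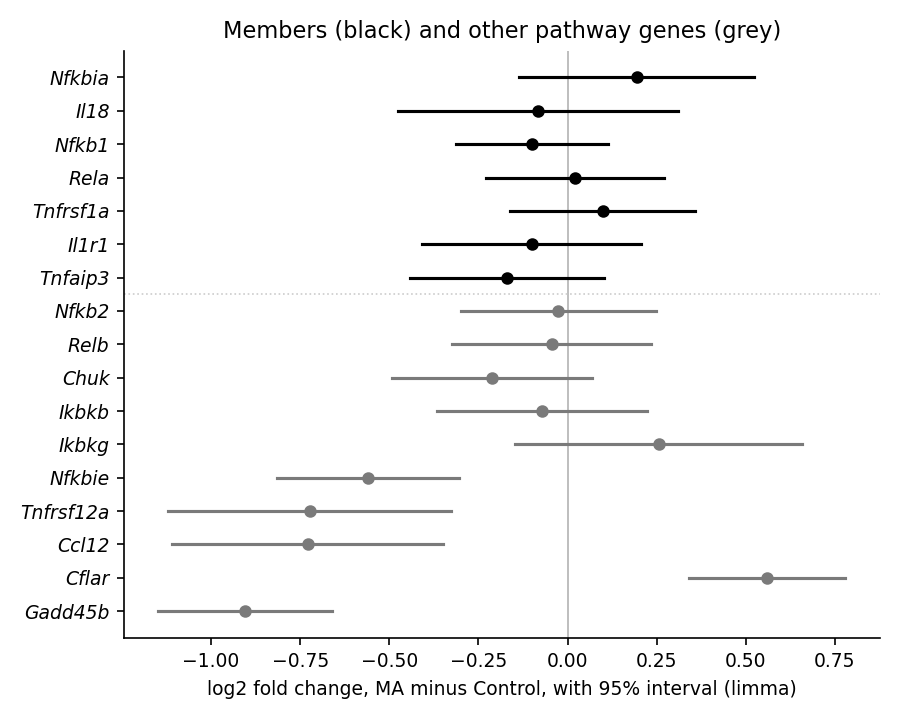
Log2 fold change (MA minus Control) with its 95% interval from limma for the 7 tested members (black) and for 10 other genes of the pathway (grey). The grey genes are the other tested Rel and IKK genes and genes picked for the smallest unadjusted p-values of their lists. Not every pathway gene whose interval excludes 0 is drawn, and *Zfp36* is among those left out. All 7 black intervals cross 0, as do those of *Nfkb2*, *Relb*, *Chuk*, *Ikbkb* and *Ikbkg*, whereas *Nfkbie*, *Tnfrsf12a*, *Ccl12* and *Gadd45b* lie below 0 and *Cflar* above it before adjustment.

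The wider pathway was followed with 147 further genes in 8 lists by role, of which 134 have a row and 93 passed the filter. Of the 93, 1 gene passed the adjusted threshold and 7 had an unadjusted p under 0.05, 2 higher and 5 lower in the MA group. This is 7.53% of the genes, against 10.4% of all tested genes, and the median log2 fold change was -0.016. Groups did not overlap for 19 of the 93 (5 higher and 14 lower), where 17.5% of all tested genes were separate (7.32% higher and 10.2% lower).

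Of the IKK complex, the catalytic subunits *Chuk* (IKKα) and *Ikbkb* (IKKβ) had log2 fold changes of -0.21 and -0.071, and the scaffold *Ikbkg* (NEMO) had 0.26. None passed the threshold (adjusted p-values by limma of 0.603, 0.901 and 0.673). *Chuk* was 4.16, 3.87 and 3.83 in the Control group and 3.82, 3.60 and 3.81 in the MA group. Its groups were thus separate by a narrow margin, and 17.5% of all tested genes had separate groups. Without Control replicate 1 its log2 fold change was -0.11, and without MA replicate 2 that of *Ikbkg* was 0.076. *Ikbkg* shares 418 exonic bases with *G6pdx* on the other strand and is uncertain. Among the 28 tested adaptors and upstream kinases, 14 were nominally higher and 14 lower, 0 had an unadjusted p under 0.05 (limma), and the median was 0.0012. The smallest p-values in that list were those of *Rnf31*, a subunit of the linear ubiquitin ligase (0.37), *Tab2*, a subunit of the TAK1 kinase complex (-0.22), and *Myd88*, the adaptor of the IL-1 and Toll-like receptors (-0.24), with adjusted p-values by limma of 0.487, 0.513 and 0.514. *Rnf31* and *Myd88* share exonic bases with *Irf9* and *Acaa1a*.

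Of the 12 other cytokine genes with a row, 6 passed the filter and 0 had an unadjusted p under 0.05 (limma). *Ltb*, *Il33* and *Tnfsf13b*, which encode lymphotoxin β, the alarmin IL-33 and BAFF, had the smallest p-values of the list, with log2 fold changes of 0.20, -0.14 and 0.10 (adjusted p-values by limma of 0.752, 0.850 and 0.876). Among the other receptors 10 of 24 passed the filter, and 1 (10%) had an unadjusted p under 0.05 (limma), against 10.4% of all tested genes. *Tnfrsf12a*, the receptor of the cytokine TWEAK, was 3.08, 3.12 and 3.21 in the Control group and 2.02, 2.61 and 2.60 in the MA group. Its groups did not overlap, as for 17.5% of all tested genes, and its log2 fold change was -0.72 (SE 0.17, adjusted p = 0.219 by limma). *Ltbr*, the lymphotoxin β receptor, and *Tlr3*, a receptor of double-stranded RNA, had log2 fold changes of 0.53 and -0.20 (adjusted p-values by limma of 0.603 and 0.655), and *Tlr3* overlaps an antisense RNA. *Ltbr* was highest in MA replicate 2 (3.67, against 2.36 and 2.67 in the other MA libraries), and without that library its log2 fold change was 0.15. That of *Tlr3* was -0.13 without MA replicate 3 or without Control replicate 3. In the list of inflammasome and cytokine-processing genes 8 of 12 passed the filter, and 0 had an unadjusted p under 0.05 (limma). *Pycard*, the adaptor through which inflammasomes recruit caspase-1, was 0.25 higher, and *Casp8* and *Aim2* were at -0.12 and -0.19 (adjusted p-values by limma of 0.731, 0.739 and 0.751). The log2 fold change of *Pycard* was 0.078 without MA replicate 3 and 0.42 without Control replicate 1. *Pycard* shares 485 exonic bases with *Gm45205* on the other strand and is uncertain.

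Among 17 other inhibitors and feedback genes, 2 had an unadjusted p under 0.05 and 0 an adjusted one (limma). The former is 11.8% of the list, near the 10.4% of all tested genes. *Nfkbie* encodes IκBε, a relative of IκBα. It was 1.26, 1.20 and 1.14 in the Control group and 0.52, 0.71 and 0.68 in the MA group. Every MA library was below every Control library, as for 10.2% of all tested genes. The log2 fold change was -0.56 (SE 0.11, limma unadjusted p = 0.00112, adjusted p = 0.141), and it passed the adjusted threshold only with sample quality weights (0.0315). With an offset of 0.1 its log2 fold change was -1.09. *Zfp36*, whose product destabilizes *Tnf* mRNA, was 0.25 higher (adjusted p = 0.458 by limma) and overlaps an antisense RNA. *Otud7b*, a deubiquitinase related to A20, was 0.20 higher (adjusted p = 0.488 by limma).

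Of 19 tested inducible target genes, 4 had an unadjusted p under 0.05, 1 higher and 3 lower, where 10.4% of all tested genes did (4.99% higher and 5.46% lower). *Gadd45b*, a stress and survival gene that is also induced by neuronal activity, was the 1 gene of the wider pathway that passed the adjusted threshold. It was 4.74, 4.51 and 4.40 in the Control group and 3.64, 3.67 and 3.64 in the MA group, and in the libraries labelled MA it was lower by a log2 fold change of -0.90 (SE 0.10, adjusted p = 0.0315 by limma). The 8 immediate early genes, whose sums are given above, were lower in the same libraries, and their relation to *Gadd45b* was not tested. The call was lost with the replicate number as a block (adjusted p = 0.115), without the filter (0.0684) and without any 1 library other than MA replicate 3 (0.0843 to 0.140), while the log2 fold change lay between -0.98 and -0.81 in every alternative. *Cflar*, which encodes the caspase-8 inhibitor c-FLIP, was 2.90, 2.85 and 2.81 in the Control group and 3.31, 3.42 and 3.50 in the MA group. Its log2 fold change was 0.56 (SE 0.09, adjusted p = 0.0879 by limma, or 0.0423 without MA replicate 3). The choroid plexus, blood, endothelial and meningeal sums were higher in the same libraries, and their part in the *Cflar* values was not tested. *Ccl12*, a monocyte-attracting chemokine, was 1.15, 1.21 and 0.75 in the Control group and 0.26, 0.17 and 0.50 in the MA group (log2 fold change -0.73, SE 0.16, adjusted p = 0.203 by limma). With an offset of 0.1 the log2 fold change was -1.81. *Ccl12* belongs to a cluster of similar chemokine genes.

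**Figure D4:**
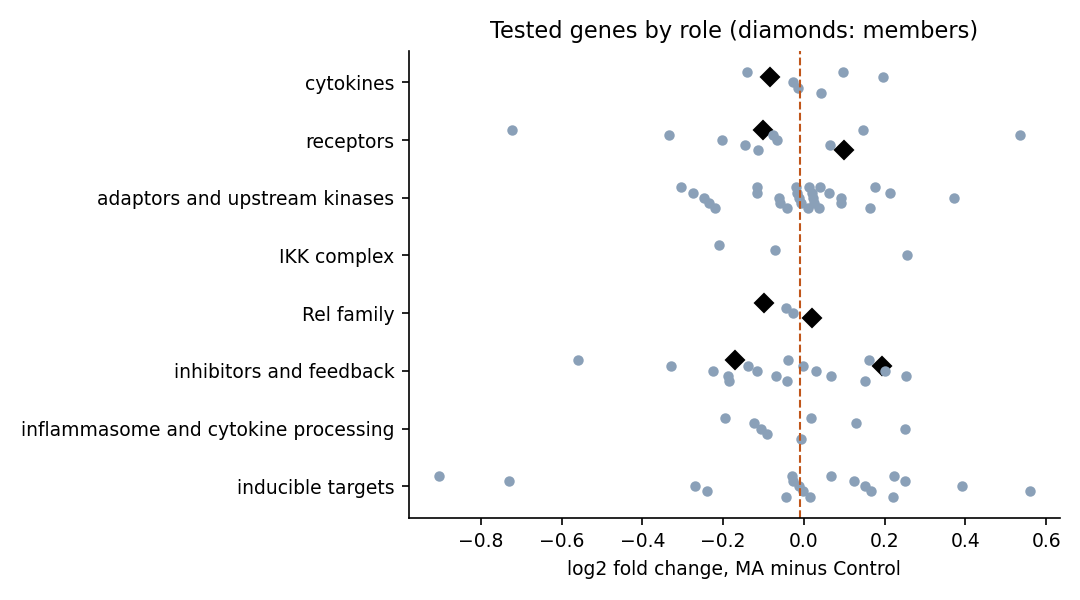
Log2 fold change (MA minus Control) of each tested gene of the pathway by role. Diamonds are the 7 tested members, dots the 93 other genes, and the dashed line the median of all tested genes (-0.010). The members lie between -0.17 and 0.19, inside the range of the other genes (-0.90 to 0.56).

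The member with the smallest p was *Tnfaip3*, and its pattern over the 6 libraries was compared with that of the other 13320 tested genes. The 5 genes most like it were *Kctd15*, *Brd3*, *Abcg1*, *Enpp4* and *Golph3l*, with Pearson's r of 0.996, 0.994, 0.992, 0.988 and 0.987 over 6 libraries. With so few libraries, 126 genes had an r over 0.9, so the ranking is a description only.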

How the data were processed

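RNA-seq of 6 hippocampi (3 Control, 3 MA) was analysed. The paper names Hisat2 for alignment of the read pairs and featureCounts for counting; the submitters' processing notes name Bowtie 0.12.2 and the builds mm8 and mm9. The authors deposited 1 table of per-gene values that is named RPKM, lies on a log2 scale (read as log2 of RPKM plus 1) and had been brought to a common distribution: sorted values above the median differ by at most 0.0285 between libraries. Neither step is described. The table gives no read totals, so depth is unknown and no counting interval is given. All 6 value columns were matched by name.

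Rows that reached 0.5 after back-transformation in 3 or more of the 6 libraries (13321 of 16060) were tested with limma 3.58.1 in R 4.3.3 (lmFit, eBayes with trend, Benjamini-Hochberg adjustment, threshold 0.05). The design allowed for log2 or linear values, and the first case applied. Exact permutation tests of single genes cannot go below 0.1. Nothing states that same-numbered mice were paired or that the libraries came from separate litters. The limma p-values set each group difference against the spread within the groups and treat the libraries as independent, which is not known. On simulated tables of 13321 genes in which 200 genes were shifted by 1 (log2), the test recovered a median of 77.2% of the changed genes. The simulated noise was independent between genes and libraries, so no library stood apart. A shift of 1 is also larger than the log2 fold change of any tested member. This share therefore does not say how often changes of the members' size would be found. The members and lists were chosen with earlier results of these data known. Named genes were all members, the other Rel and IKK genes, and in each other list any gene past the adjusted threshold plus the 3 smallest p-values. Alternatives were another offset (0.1), no filter, a mean of at least 5, median centring, quantile normalization, no trend, sample quality weights, the replicate block, and leaving out each library. Gene positions are from GENCODE M21 (GRCm38) and promoter sequences from RefSeq (GRCm38.p6), for location only, as the authors' table holds no coordinates.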

Additional observations from a re-analysis of the deposited data

How the results depend on the processing

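No member passed an adjusted p under 0.05 in any of the 14 alternative fits in which it was tested (limma). Median centring and quantile normalization could change little, as the deposited values already had a common distribution. The unadjusted threshold was passed by 2 members with sample quality weights (*Il18* lower and *Nfkbia* higher) and by 1 without MA replicate 3 (*Il18*), so the range over the fits that each left out 1 library was 0 to 1. The directions of *Nfkb1*, *Nfkbia*, *Tnfaip3* and *Tnfrsf1a* held in every fit that tested them, and a minimum mean of 5 removed *Tnfaip3*, *Il1r1* and *Tnfrsf1a* from the test. *Rela* was -0.0699 with sample quality weights. With each library left out, the log2 fold change ranged from -0.279 to 0.0333 for *Il18*, -0.188 to 0.00621 for *Il1r1*, -0.0477 to 0.0773 for *Rela*, -0.230 to 0.0406 for *Il33*, -0.0421 to 0.189 for *Tnfsf13b*, -0.156 to 0.0439 for *Ikbkb*, -0.117 to 0.0345 for *Relb* and -0.0820 to 0.0239 for *Nfkb2*, all turning sign. Over all tested genes, the count of 35 at an adjusted p under 0.05 became 3 without the filter, 20 with a mean of at least 5, 586 with sample quality weights, and 0 to 257 with 1 library left out. The count of 1392 at an unadjusted p under 0.05 became 844 with a mean of at least 5, where fewer genes were tested, 3504 with sample quality weights, and 829 to 3103 with 1 library left out, the highest without MA replicate 3. The 7 other pathway genes at that threshold became 4, 23, and 6 to 12 in the same fits. With sample quality weights *Tnfrsf12a*, *Nfkbie*, *Cflar* and *Ccl12* passed the adjusted threshold. The cause of these shifts was not tested.

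The groups share replicate numbers, and the residuals of libraries with the same number had correlations of -0.197, -0.242 and -0.337 over the tested genes. Residuals cancel out within each group, which ties these values together, so they do not settle whether the libraries were paired. With the replicate block, 15 genes passed the adjusted and 842 the unadjusted threshold, and 0 members passed either.

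The depth behind the values is unknown. With an offset of 0.1 the differences of low genes grew, for *Il1b* from 0.080 to 0.48, for *Nfkbie* from -0.56 to -1.09 and for *Ccl12* from -0.73 to -1.81.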
